A study of Homo sapiens with 36 samples.

Results

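The direct comparison of YAP knockdown with TAZ knockdown in transformed breast epithelial cells rests on 4 of the 36 RNA-sequencing libraries of the series. They are the 2 libraries of MCF-10A ER-Src cells given siRNA against YAP under tamoxifen (YAPi) and the 2 given siRNA against TAZ under tamoxifen (TAZi), chosen by their labels with no use of measured values. MCF-10A ER-Src is a human breast epithelial line, non-transformed at the start, in which the v-Src oncoprotein is fused to the part of the estrogen receptor that binds ligand. All 4 libraries come from cells whose v-Src had been switched on with tamoxifen (TAM), and the treatment notes also name AZD0530, an inhibitor of Src family kinases. The 2 libraries with control siRNA under TAM (Ctrli) are shown beside them, while 4 libraries of the same siRNAs in non-transformed cells (ETH, the ethanol vehicle) and 4 of MDA-MB-231, a triple-negative breast cancer line, with siRNA against the same genes, show where the comparison repeats. The cells are a line of 1 origin, and the siRNAs are commercial pools, so that loss of a paralog and any other effect of its pool cannot be told apart by design.

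YAP and TAZ are related coactivators without a DNA-binding domain of their own, which the kinases of the Hippo pathway keep out of the nucleus and which act on genes largely through TEAD proteins. The gene WWTR1 encodes TAZ. They are usually treated as a pair in epithelial growth and wound repair, and removing either can leave the other in place, so the question here is which genes tell the paralogs apart. In stratified epithelia the opposite programme is squamous differentiation, in which small proline-rich proteins and involucrin are crosslinked into the cornified envelope, while S100 proteins, proteases and junction proteins build a barrier.

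The study's oligonucleotide list gives a catalogue number for each pool and, beneath it, 1 sequence for each paralog. They are shown as the sequences listed for the 2 targets, and the knockdowns cannot be traced to them. Per the methods, pools were transfected into ER-Src cells. The sources used here do not say what the single sequences were used for, or whether the pools hold them. Both are written 5′ to 3′ as the sense strand, and the capitals mark the bases opposite the seed of the guide strand, its bases 2 to 8.
YAP1 siRNA: gacaucuucugGUCAGAGa
TAZ siRNA: acguugacuuaGGAACUUu

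The YAP1 sequence lies in coding exon 2 of 9, at chr11:102114365-102114383 on the plus strand (GRCh38), and is present in 8 of the 11 annotated YAP1 transcripts. Its only other exact match among all annotated transcripts is the pseudogene YAP1P1. The TAZ sequence lies in the coding part of exon 7 of 7 of WWTR1, at chr3:149520887-149520905 on the minus strand, in 6 of 12 annotated transcripts and in no transcript of another gene. The paralogs therefore share neither 19-base site, which leaves the target sites of the pools unknown.

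Each siRNA pool lowered its own target, and no change of the other paralog passed the test. YAP1 (ENSG00000137693, chr11:102110447-102233424) stood at 5.74 and 4.31 TPM in the YAPi libraries, 28.1 and 25.0 TPM in the TAZi libraries and 29.8 and 28.9 TPM in Ctrli. TPM is a gene's share of all transcripts, corrected for gene length and scaled to the same total in every library. The YAPi values lay far below those of the other groups, and the TAZi values a little below Ctrli. The log2 fold change, YAPi minus TAZi throughout, was -2.32 ± 0.14 (SE), with a DESeq2 adjusted p of 3.2e-58. WWTR1 (ENSG00000018408, chr3:149517235-149736714) stood at 5.04 and 5.11 TPM in YAPi, 1.28 and 1.40 TPM in TAZi, and 6.59 and 6.44 TPM in Ctrli. Its log2 fold change was 2.05 ± 0.24 (DESeq2 adjusted p 1.7e-15). Against Ctrli, YAP1 in YAPi differed by -2.49 ± 0.14 and WWTR1 in TAZi by -2.22 ± 0.25 (DESeq2 adjusted p 2.6e-70 and 5.3e-17). WWTR1 in YAPi differed by -0.18 ± 0.19 on the log2 scale (DESeq2 adjusted p 0.66) and YAP1 in TAZi by -0.17 ± 0.12 (adjusted p 0.58), and the 4 values share the same control libraries.

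The 4 libraries held 11428402 to 17468587 estimated read counts, with the shallower and the deeper library of each group numbered alike. The spread of the log2 ratio between replicates, over 9958 genes whose mean normalized count reached 100, was 0.243 (SD) in YAPi and 0.264 in TAZi, against 0.438 for the ratio of the group means. The labels do not say whether replicates are separate cultures, so p-values measure the spread between these libraries, which may be technical. Markers fitted a basal-like epithelial line: the 7 basal markers, among them KRT5, KRT17, KRT14, TP63, ITGB4 and CDH3, were all present. They summed to 2780 to 3060 TPM in YAPi and 3330 to 3460 TPM in TAZi. Of the 7, 2 were called higher in YAPi and 1 in TAZi (42.9%, beside 6.13% of all genes). Of 6 luminal markers PGR had no count and 5 were tested, and their sum was 230 to 252 TPM in YAPi and 283 to 294 TPM in TAZi, with KRT18 called higher in TAZi (-0.38 ± 0.09). Estrogen receptor reads (ESR1, 114 to 137 TPM) may include those of the fusion. The leukocyte marker CD3E had no count and PTPRC was at 0.01 TPM or less in the 4 libraries, while the 5 leukocyte markers summed to 22.9 to 27.7 TPM in YAPi and 18.8 to 21.7 TPM in TAZi, mostly CD68, which was called higher in YAPi (0.78 ± 0.19, DESeq2 adjusted p 0.00078). Neither the KRT18 nor the CD68 call held with a replicate block, a fit over all ER-Src groups or edgeR with adjusted deviances. In bulk RNA, fewer cells of a kind and less RNA per cell cannot be told apart.

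Of 15020 genes given an adjusted p, 920 (6.13%) differed between YAPi and TAZi cells at a DESeq2 adjusted p under 0.01. Of these, 530 were higher in YAPi (3.53% of the genes tested) and 390 were higher in TAZi (2.6%). The 2 shares are the background for the counts of list members given below. Differences of at least 2-fold were found for 198 of the genes higher in YAPi and 113 of those higher in TAZi. Protein-coding genes made up 861 of the 920. In all 920 the YAPi and TAZi libraries did not overlap, so lack of overlap sets no called gene apart. The count depended on each library: it was 686 without YAPi replicate 1, 262 without YAPi replicate 2, 231 without TAZi replicate 1 and 255 without TAZi replicate 2. The median log2 fold change over all tested genes was 0.00.

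**Figure D1:**
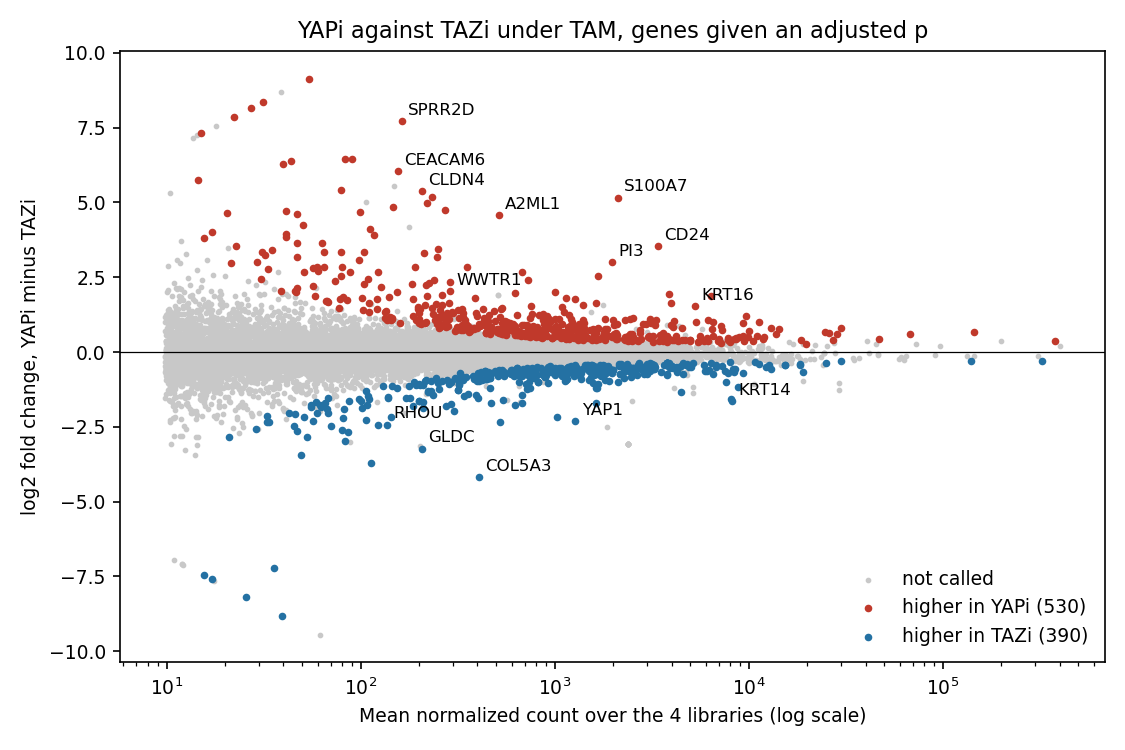
Log2 fold change (YAPi minus TAZi, y axis) against the mean normalized count of the 4 TAM libraries (x axis, log scale), 1 point per gene given an adjusted p. Red points (530) were called higher in YAPi and blue points (390) higher in TAZi, and the genes furthest from 0 at high counts include A2ML1, S100A7 and CD24 above and COL5A3 and GLDC below.

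Many of the genes that separated the paralogs most strongly were genes of squamous differentiation and the epithelial barrier. Some, such as the small proline-rich genes, were nearly silent in TAZi and in control cells and present in YAPi cells. Others, such as PI3, were expressed in every group and higher in YAPi. The cornified envelope list, drawn up from textbook knowledge with earlier results known, had 29 genes, of which 15 were given an adjusted p. Of these 15, 12 were higher in YAPi and 0 in TAZi, beside 3.53% and 2.6% of all genes. Their median log2 fold change was 3.93, where all tested genes had a median of 0.00. An adjusted p needs a minimum mean count over the 4 libraries. Some members, such as SPRR2E (156 counts in YAPi, 2 in TAZi), could meet it only through YAPi. The share called and the median are therefore partly set by that filter. With any 1 library left out the list kept 9 or 10 called members.

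SPRR2D, a small proline-rich crosslinked protein of the cornified envelope, stood at 16.5 and 13.4 TPM in YAPi, 0.10 and 0.05 TPM in TAZi, and 0 in both Ctrli libraries. The TAZi value rests on 3 counts in all against 681 in YAPi, a normalized ratio of 209 with a 95% exact interval of 71.3 to 1020 that covers counting error only. SPRR1B, of the same family, stood at 26.2 and 20.4 TPM in YAPi and at 0.34 and 0.98 TPM in TAZi. Neither Ctrli library exceeded 0.43 TPM, and the log2 fold change was 5.18 ± 0.39 (DESeq2 adjusted p 8.4e-38). SPRR1A was at 10.8 and 10.2 TPM in YAPi and 0.33 and 0.57 TPM in TAZi. IVL, which encodes involucrin, was at 1.14 and 1.23 TPM in YAPi and had 2 counts in all in TAZi, a ratio of 85.7 (95% exact interval 23.4 to 713). SPRR2A, SPRR2D and SPRR2E are close copies among which RSEM divides shared reads, so their separate values are uncertain. In each of these genes the lowest YAPi library was above the highest TAZi and Ctrli library.

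Envelope scaffolds changed less. DSC2, a desmosomal cadherin, was at 8.20 and 8.23 TPM in YAPi and 2.14 and 2.33 TPM in TAZi, a log2 fold change of 2.01 ± 0.14 (DESeq2 adjusted p 5.8e-41), with Ctrli at 2.20 and 2.02 TPM. PPL and EVPL, the plakins periplakin and envoplakin that line the envelope, had log2 fold changes of 1.33 ± 0.14 and 0.74 ± 0.20 (DESeq2 adjusted p 4.1e-19 and 0.0044).

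Several genes of secreted and surface proteins stood higher in both YAPi libraries than in any TAZi or Ctrli library. S100A7 (psoriasin), an antimicrobial S100 protein, was at 481 and 146 TPM in YAPi, 8.33 and 10.4 TPM in TAZi, and 3.86 and 3.98 TPM in Ctrli. The YAPi libraries differed from each other more than 3-fold, and neither overlapped with TAZi, as in every called gene. The log2 fold change was 5.16 ± 0.72 (DESeq2 adjusted p 1.2e-10). PI3 (elafin), a protease inhibitor of skin, was at 266 and 130 TPM in YAPi, 22.4 and 30.8 TPM in TAZi, and 25.2 and 26.4 TPM in Ctrli. A2ML1, an alpha-2-macroglobulin-like inhibitor of proteases in epidermis, was at 7.46 and 5.64 TPM against 0.40 and 0.30 TPM. Its log2 fold change was 4.58 ± 0.24 (DESeq2 adjusted p 1.8e-78), and Ctrli was lower still at 0.05 and 0.21 TPM. CEACAM6, a cell adhesion glycoprotein, was at 3.45 and 3.30 TPM in YAPi and 0.08 and 0.04 TPM in TAZi, a log2 fold change of 6.06 ± 0.55 (DESeq2 adjusted p 4.3e-25). CD24, a small mucin-like surface protein, was the abundant gene with the smallest adjusted p: 111 and 90.3 TPM in YAPi, 8.99 and 12.9 TPM in TAZi and 12.1 and 10.8 TPM in Ctrli. Its log2 fold change was 3.54 ± 0.15 (DESeq2 adjusted p 4.9e-121).

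The other genes with the largest rises relative to TAZi were GDPD3, FAM25A, CRABP2, AZGP1 and SLC6A14, with log2 fold changes of 4.11, 3.91, 4.85, 4.74 and 4.97. CRABP2 carries retinoic acid to the nucleus, AZGP1 is a secreted zinc-binding glycoprotein, and SLC6A14 is an amino acid transporter. For all of them the TAZi and Ctrli libraries lay together near the bottom of the range.

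**Figure D2:**
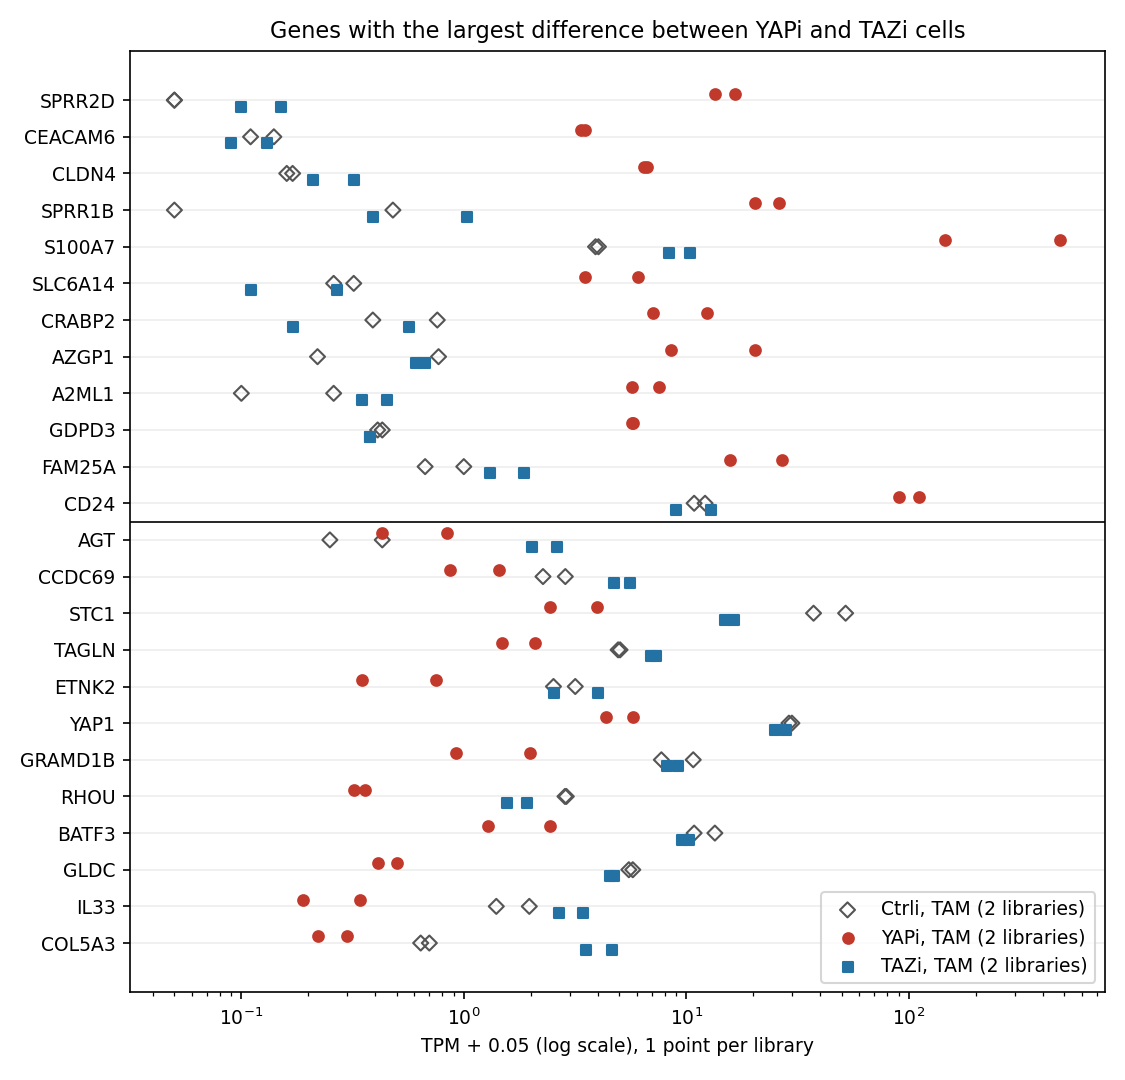
TPM plus 0.05 on a log axis for the 12 genes per direction with the largest change, 1 point per library: YAPi (red circles), TAZi (blue squares) and Ctrli (open diamonds), all under TAM. In the upper block both YAPi libraries lie far to the right of the TAZi and Ctrli libraries (SPRR2D at 16.5 and 13.4 TPM against 0.10 TPM or less), and in the lower block both lie to the left of TAZi.

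Many of these genes sit side by side in the epidermal differentiation complex on chromosome 1, where cornified envelope and S100 genes are clustered. From S100A10 to S100A1 (chr1:151982915-153632039, GRCh38), 30 of 85 annotated genes were given an adjusted p. Of these 30, 18 were higher in YAPi and 0 were higher in TAZi, beside 3.53% and 2.6% of all genes tested. Here too some genes, such as IVL and SPRR2E, could meet the count filter only through YAPi, which partly sets this share. The differences were large from IVL to SPRR2E and for S100A7A and S100A7, and small for the S100 genes at either end. S100A16 was at 232 and 252 TPM in YAPi and 119 and 147 TPM in TAZi (log2 fold change 1.02 ± 0.12), while S100A6 differed by 0.67 ± 0.11, with DESeq2 adjusted p of 2.8e-14 and 2.7e-07. The other 12 tested genes were not called. FLG and HRNR, which encode the late-differentiation proteins filaggrin and hornerin, had log2 fold changes of -0.64 ± 0.51 and -0.78 ± 0.31 (DESeq2 adjusted p 0.58 and 0.10). S100A8 and S100A9, subunits of calprotectin, had 0.26 and 0.19. S100A8 was at 3830 and 2620 TPM in YAPi and 2830 and 2990 TPM in TAZi, so that the groups overlapped, and both groups lay above Ctrli at 1440 and 1370 TPM. Genes in a cluster are not independent of each other, and the boundaries were chosen with the results known.

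**Figure D3:**
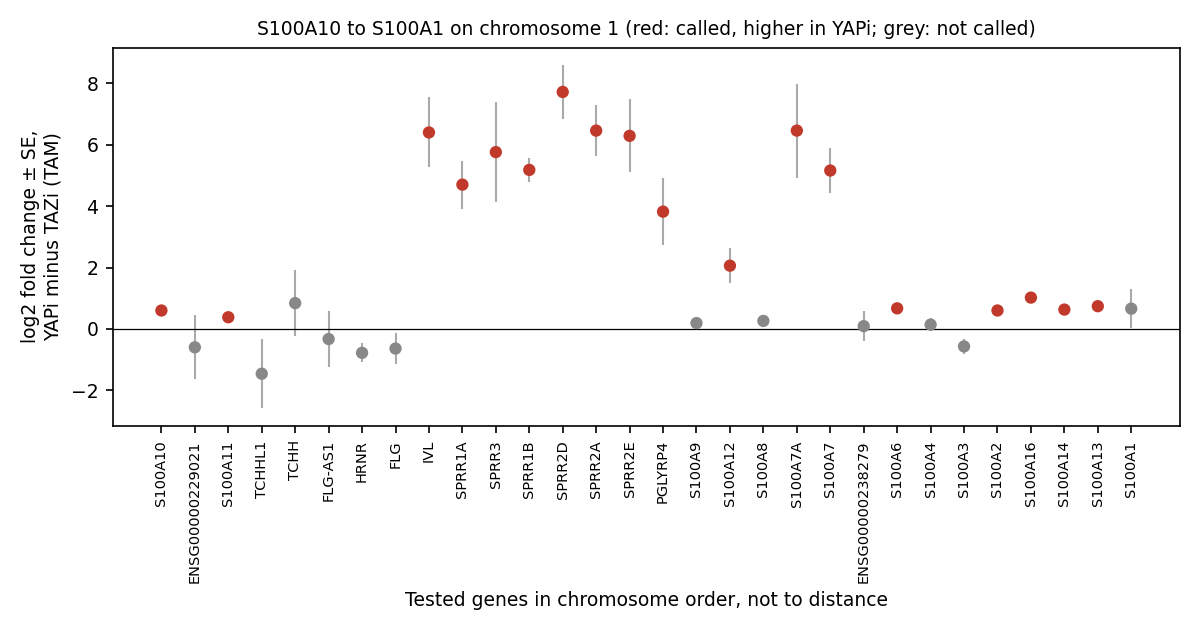
Log2 fold change (YAPi minus TAZi under TAM, y axis, bars are SE) for the 30 tested genes from S100A10 to S100A1 in chromosome order, not to distance. The 18 red points were called higher in YAPi, with IVL, the SPRR genes, S100A7A and S100A7 highest, and none was called higher in TAZi.

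The list of kallikreins and serine proteases, which process barrier proteins in skin, had 10 tested members. Of these, 7 were higher in YAPi and 0 in TAZi, beside 3.53% and 2.6% of all genes. The median log2 fold change was 2.08. KLK6 and TMPRSS11E, with 0 counts in TAZi, met the count filter only through YAPi, which partly sets these values. The count of 7 fell to 3 with a replicate block and ran from 3 to 10 over the settings that kept all 4 libraries. It also fell whichever 1 library was left out. TMPRSS4, at -3.14 ± 0.92, missed the threshold (DESeq2 adjusted p 0.011), and 1 member was called higher in TAZi with the block and without either YAPi library. KLK5, a kallikrein that starts the skin protease cascade, was at 4.88 and 3.03 TPM in YAPi and 0.12 and 0.20 TPM in TAZi, a log2 fold change of 4.67 ± 0.52 (DESeq2 adjusted p 1.9e-16). Serpins and the urokinase system, a separate list, went both ways, with 2 of 15 higher in YAPi and 3 in TAZi, among them SERPINB13 and SERPINE2 (-0.68 and -0.66), and the 3 became 6, 3, 0 and 0 with YAPi 1, YAPi 2, TAZi 1 and TAZi 2 left out. KLK6 had 89 counts in YAPi and 0 in TAZi, at least 27.4-fold higher in YAPi when 3 counts over the TAZi libraries are taken as the floor. SPINK6 and SPINK5, inhibitors on the same list that restrain kallikreins, were higher in YAPi by 2.17 ± 0.36 and 2.00 ± 0.53 (DESeq2 adjusted p 9.2e-08 and 0.0037).

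Junction and adhesion genes were also higher in YAPi, by smaller amounts. Tight junction genes were higher in YAPi in 6 of 13 tested members, desmosome genes in 6 of 9, and hemidesmosome and laminin-332 genes in 6 of 9. The share over all genes was 3.53%. The medians of the 3 lists were 0.62, 0.49 and 0.55. Of these lists, only the desmosome list had a member higher in TAZi, DSC3 (log2 fold change -0.71 ± 0.14, DESeq2 adjusted p 1.7e-05), which was not called without YAPi replicate 1 or either TAZi library. With 1 library left out the tight junction count was 4, 2, 4 and 4 and the hemidesmosome count 7, 5, 4 and 3, in the order YAPi 1, YAPi 2, TAZi 1 and TAZi 2.

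CLDN4, a claudin of the tight junction, was at 6.59 and 6.39 TPM in YAPi, 0.27 and 0.16 TPM in TAZi, and 0.12 and 0.11 TPM in Ctrli, a log2 fold change of 5.38 ± 0.41 (DESeq2 adjusted p 2.9e-36). It was the junction gene in which the groups lay furthest apart. CDH1 (E-cadherin) was at 17.8 and 17.3 TPM in YAPi, 10.1 and 9.36 TPM in TAZi and 8.40 and 6.31 TPM in Ctrli. The other epithelial marker, EPCAM, was at 5.79 and 5.24 TPM against 8.38 and 9.87 TPM and was not called (DESeq2 adjusted p 0.14).

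Keratins divided by type. The stress and hyperproliferation keratins KRT16, KRT6B and KRT6C were higher in YAPi, with log2 fold changes of 1.53 ± 0.11, 1.95 ± 0.12 and 2.42 ± 0.19 (DESeq2 adjusted p 9.1e-45, 1e-53 and 6.9e-33). KRT16 was at 148 and 147 TPM in YAPi, 57.1 and 62.3 TPM in TAZi and 25.5 and 24.6 TPM in Ctrli. KRT14, the keratin of the basal layer, went the other way, at 68.5 and 83.3 TPM in YAPi and 284 and 254 TPM in TAZi, with Ctrli at 221 and 217 TPM. Its log2 fold change was -1.65 ± 0.14 (DESeq2 adjusted p 1.1e-29). Its partner KRT5, at 1010 and 1050 TPM against 1430 and 1430 TPM, was not called (log2 fold change -0.15, DESeq2 adjusted p 0.60). The KRT6 copies share reads, so their split is uncertain.

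Among transcription factors of the epithelial lineage, GRHL3, EHF and ZNF750, which act in late epidermal differentiation or in glandular epithelia, were higher in YAPi. EHF was at 7.46 and 5.99 TPM in YAPi, 2.96 and 3.47 TPM in TAZi, and 0.98 and 0.70 TPM in Ctrli, so that it stood above the controls after either knockdown and higher after YAP knockdown. GRHL3 was at 2.51 and 3.28 TPM against 0.92 and 1.34 TPM, a log2 fold change of 2.02 ± 0.35 (DESeq2 adjusted p 6.4e-07). ETS2 fell on the other side, at 32.4 and 27.1 TPM in YAPi and 52.0 and 54.4 TPM in TAZi (log2 fold change -0.67 ± 0.09, DESeq2 adjusted p 1.5e-10). GRHL3, EHF, ZNF750 and ELK3 were the 4 of 20 tested members higher in YAPi, and ETS2 was the 1 higher in TAZi. All genes tested had 3.53% and 2.6% on these sides. The ELK3 call was lost with effective length offsets. The 4 became 3, 1, 2 and 2 with YAPi 1, YAPi 2, TAZi 1 and TAZi 2 left out, and ZNF750 rests on 89 counts in YAPi against 3 in TAZi.

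Cytokine and growth factor genes differed in both directions. In the interleukin-1 family, 3 of 9 tested members were higher in YAPi and 2 in TAZi, beside 3.53% and 2.6% of all genes. With YAPi 1, YAPi 2, TAZi 1 and TAZi 2 left out these were 3, 2, 1 and 1 and 2, 1, 1 and 1. IL1RN, the antagonist of the interleukin-1 receptor, was at 6.53 and 8.88 TPM in YAPi, 0.76 and 1.14 TPM in TAZi and 0.45 and 0.40 TPM in Ctrli, a log2 fold change of 3.17 ± 0.31 (DESeq2 adjusted p 8.8e-22). IL33, an alarmin of the same family, was at 0.29 and 0.14 TPM in YAPi, 3.38 and 2.62 TPM in TAZi, and 1.92 and 1.35 TPM in Ctrli, so that Ctrli stood between the knockdowns. Its log2 fold change was -3.72 ± 0.43 (DESeq2 adjusted p 1.0e-15). Of 11 tested chemokines 4 were higher in YAPi, beside 3.53% of all genes. Among them were CXCL8 and CCL20 at 0.56 ± 0.12 and 0.48 ± 0.10 (DESeq2 adjusted p 0.00012 and 5.5e-05). Leaving out YAPi replicate 1 or 2 left 1 of the 4, and leaving out either TAZi library left 0. HBEGF, an EGF receptor ligand, was at 6.99 and 7.47 TPM in YAPi and 2.72 and 4.30 TPM in TAZi (log2 fold change 1.21 ± 0.21, DESeq2 adjusted p 9.8e-07).

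**Figure D4:**
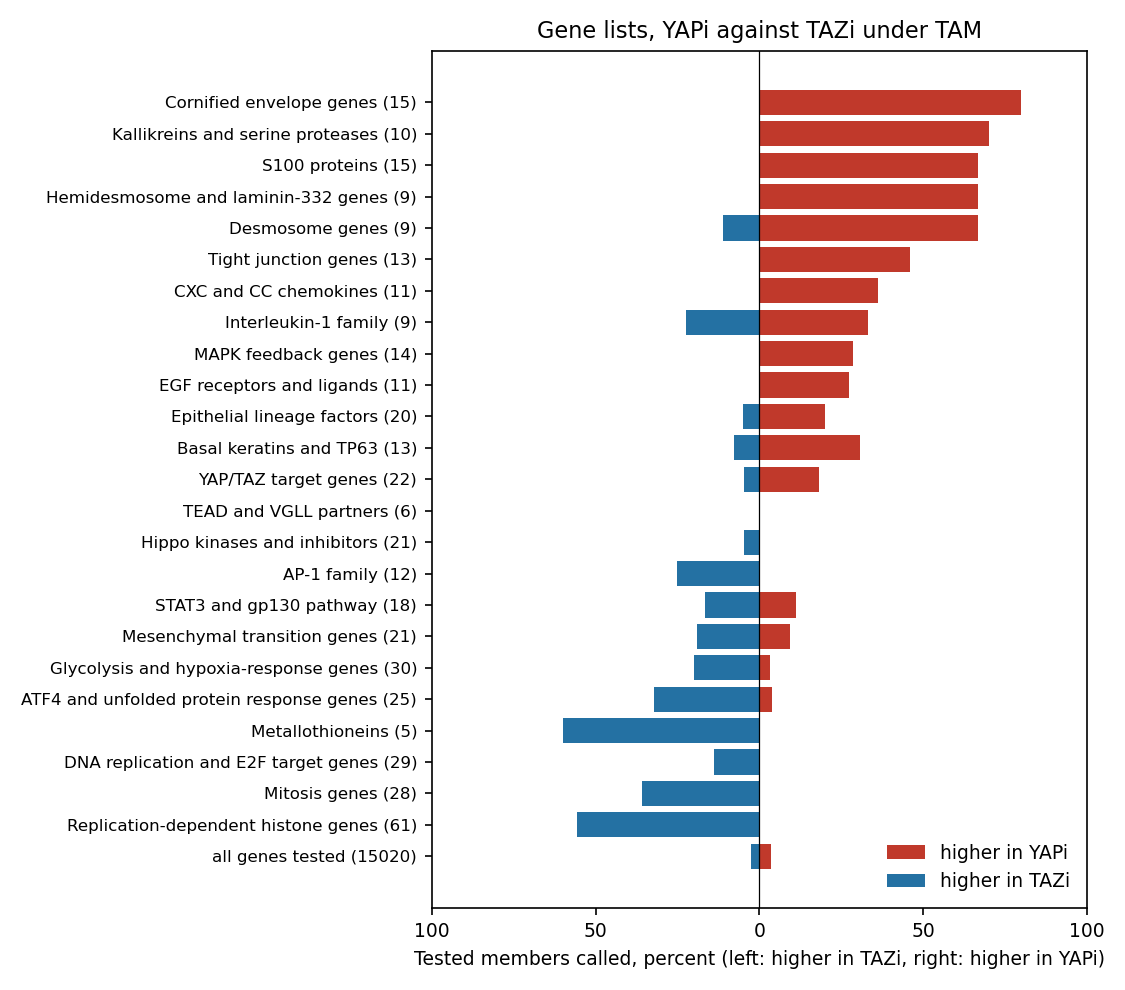
Percent of the tested members of each gene list called higher in YAPi (red, to the right) or higher in TAZi (blue, to the left) under TAM, with the number of tested members in brackets. All genes tested are the bottom bar, at 3.53% and 2.6%, and the lists run from cornified envelope genes (12 of 15 higher in YAPi) to replication-dependent histone genes (34 of 61 higher in TAZi).

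Genes usually read as targets of YAP and TAZ included few that told the paralogs apart by large amounts. Of 22 listed targets 4 were higher in YAPi and 1 was higher in TAZi, with a median log2 fold change of 0.09, which is 22.7% called beside 6.13% of all genes. CCN1 was at 5.77 and 4.95 TPM in YAPi, 9.59 and 7.53 TPM in TAZi and 14.5 and 15.2 TPM in Ctrli, and the difference between the knockdowns was not called (log2 fold change -0.48 ± 0.20, DESeq2 adjusted p 0.12). CCN2 and ANKRD1 were below 0.7 TPM in all 4 libraries, with log2 fold changes of 0.32 ± 0.50 and 0.12 ± 0.72 and no call. AMOTL2, a Hippo feedback gene, was at 16.5 and 14.4 TPM against 16.3 and 17.5 TPM, with a difference of 0.04 ± 0.11. The called members were F3, NT5E, GADD45A and AXL on the YAPi side and IGFBP3 on the TAZi side. F3, the tissue factor that starts coagulation, was at 70.7 and 76.5 TPM in YAPi and 40.0 and 42.7 TPM in TAZi, above Ctrli at 33.6 and 27.7 TPM in each case (log2 fold change 1.07 ± 0.12, DESeq2 adjusted p 8.1e-17). NT5E, the ectonucleotidase CD73, was at 22.3 and 21.8 TPM in YAPi, 12.3 and 13 TPM in TAZi and 24.1 and 22.3 TPM in Ctrli. Against Ctrli it differed by -0.88 ± 0.13 in TAZi (DESeq2 adjusted p 1e-09) and by 0.06 ± 0.14 in YAPi (adjusted p 0.86). With 1 library left out, whichever it was, 2 of the 4 members on the YAPi side were called and IGFBP3 was not, as with a replicate block.

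TEAD1 and TEAD4, DNA-binding partners of both coactivators, were not called, with log2 fold changes of -0.15 ± 0.14 and -0.10 ± 0.18 (DESeq2 adjusted p 0.64 and 0.89). Of 21 tested Hippo kinases and inhibitors, 1 was called: WWC1 (KIBRA), an upstream activator of the pathway, was higher in TAZi at -0.48 ± 0.12 (DESeq2 adjusted p 0.0022). That is 4.76% of the list, below the background of 6.13%, and it was called without YAPi replicate 1 but not without any other library.

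STAT3 and the AP-1 factor JUNB were themselves knocked down in other libraries of the series. STAT3 was at 51.7 and 37.9 TPM in YAPi and 53.5 and 53.1 TPM in TAZi, and JUNB at 54.8 and 43.3 TPM against 64.2 and 62.8 TPM. Neither was called, with log2 fold changes of -0.07 ± 0.12 and -0.25 ± 0.11 (DESeq2 adjusted p 0.86 and 0.16). JUN and FOSL1, at 0.27 ± 0.19 and 0.67 ± 0.25, were not called either. Of 12 tested AP-1 genes, 3 were higher in TAZi (25.0%, beside 2.6% of all genes): FOS, ATF3 and BATF3. They became 2, 2, 1 and 2 with YAPi 1, YAPi 2, TAZi 1 and TAZi 2 left out, and ATF3 was lost each time. FOS was at 11.8 and 5.98 TPM in YAPi, 22.7 and 19.6 TPM in TAZi and 32.7 and 33.5 TPM in Ctrli (log2 fold change -1.21 ± 0.21, DESeq2 adjusted p 8.8e-07). BATF3 was at 2.40 and 1.24 TPM in YAPi and 10.2 and 9.50 TPM in TAZi, close to Ctrli at 13.4 and 10.8 TPM. Of 18 tested genes of the STAT3 and gp130 pathway 2 were higher in YAPi and 3 in TAZi, and with YAPi 1, YAPi 2, TAZi 1 and TAZi 2 left out these were 1, 0, 0 and 0 and 2, 2, 1 and 1. IL6R, the receptor of interleukin-6, was at 5.18 and 4.56 TPM in YAPi and 2.65 and 2.40 TPM in TAZi (log2 fold change 0.93 ± 0.19, DESeq2 adjusted p 5.1e-05). SOCS3, a feedback inhibitor of STAT3 signalling, was higher in TAZi by 0.66 on the log2 scale (YAPi minus TAZi -0.66 ± 0.11, DESeq2 adjusted p 9.4e-08). IL6 was below 0.5 TPM in every library and was given no adjusted p.

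Among the genes lower in YAPi than in TAZi were single genes of matrix and cytoskeleton, whose lists went both ways. Collagens had 1 of 16 tested members called on each side (12.5% in all, beside 6.13% of all genes, median -0.03). Contractile cytoskeleton genes had 3 of 23 higher in YAPi and 2 in TAZi (21.7% in all, median 0.14). COL5A3, which is not on the collagen list, a fibrillar collagen chain (chr19:9959561-10010504), had the largest difference on this side among protein-coding genes with a symbol averaging 100 or more normalized counts. It was at 0.25 and 0.17 TPM in YAPi, 4.59 and 3.50 TPM in TAZi, and 0.59 and 0.65 TPM in Ctrli. Each knockdown thus lay on its own side of the controls, and the log2 fold change was -4.18 ± 0.27 (DESeq2 adjusted p 5.0e-50). GLDC, the glycine decarboxylase of one-carbon metabolism, was at 0.45 and 0.36 TPM in YAPi against 4.70 and 4.48 TPM in TAZi, near Ctrli at 5.70 and 5.47 TPM (log2 fold change -3.23 ± 0.29, DESeq2 adjusted p 1.0e-26). TAGLN (transgelin), an actin-binding protein, was at 1.43 and 2.04 TPM against 7.27 and 6.88 TPM, and LOX (lysyl oxidase), which crosslinks collagen, at 3.13 and 2.03 TPM against 11.8 and 8.21 TPM. Of 21 tested genes of mesenchymal transition 4 were higher in TAZi (TAGLN, LOX, TNC and SERPINE2) and 2 were higher in YAPi (FN1 and TGFBI). With YAPi 1, YAPi 2, TAZi 1 and TAZi 2 left out the 4 became 3 each time and the 2 became 1, 0, 1 and 1. The summed level of 6 fibroblast markers was 2.48 to 2.51 TPM in YAPi and 5.42 to 5.75 TPM in TAZi, mostly LUM, and 0 of the 3 tested members were called by DESeq2, 2 by edgeR and 1 by edgeR with adjusted deviances. Its part in these differences was not tested.

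Glycolysis and stress response genes leaned to TAZi. Of 30 tested glycolysis and hypoxia-response genes 6 were higher in TAZi and 1 in YAPi, beside 2.6% and 3.53% of all genes. The median was -0.10. HK2, which carries out the first step of glycolysis, was at 5.07 and 3.69 TPM in YAPi, 16 and 12.8 TPM in TAZi, and 8.69 and 8.30 TPM in Ctrli, again on either side of the controls (log2 fold change -1.71 ± 0.15, DESeq2 adjusted p 3e-28). STC1, a hypoxia-responsive hormone, was at 3.93 and 2.39 TPM in YAPi and 16.3 and 14.9 TPM in TAZi, and both groups were below Ctrli at 52.0 and 37.3 TPM. ANGPTL4 was the member higher in YAPi (0.81 ± 0.11). Among genes of the ATF4 and unfolded protein responses 8 of 25 were higher in TAZi and 1 in YAPi, beside the same background. SHMT2, a mitochondrial serine enzyme, led the 8 at 24.2 and 20.0 TPM against 52.4 and 47.2 TPM (log2 fold change -0.98 ± 0.12, DESeq2 adjusted p 9.4e-15). The 8 became 5, 4, 1 and 4 without YAPi 1, YAPi 2, TAZi 1 and TAZi 2. With 1 library left out the 6 glycolysis genes became 4 or 5.

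Cell cycle genes were lower in YAPi by small amounts that rested on few libraries. All 28 mitosis genes had a log2 fold change below 0, and 10 of them were called higher in TAZi, beside 2.6% of all genes. The median of the 28 was -0.53. CCNB1 (cyclin B1) was at 50 and 36.3 TPM in YAPi, 74.0 and 75.8 TPM in TAZi, and 91.0 and 91.5 TPM in Ctrli. MKI67, the proliferation marker Ki-67, was at 6.87 and 5.00 TPM against 10.9 and 10.1 TPM, with Ctrli at 18 and 14.7 TPM. The second YAPi library was the lower of its group in both genes. Without YAPi replicate 1 the list had 15 called members, without YAPi replicate 2 it had 1, and without either TAZi library 0. Replication-dependent histone genes, whose transcripts peak in S phase and lack a poly(A) tail, were higher in TAZi in 34 of 61 tested members (median -0.65, beside 2.6% of all genes called). That count was 44 without YAPi replicate 1, 2 without YAPi replicate 2 and 4 without either TAZi library, and histone copies share reads. The G1 cyclin CCND1 went the other way, at 34.7 and 34.2 TPM in YAPi and 21.7 and 19.9 TPM in TAZi (log2 fold change 1.11 ± 0.12, DESeq2 adjusted p 3e-18).

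Placed beside the controls, TAZi was usually the knockdown nearer to Ctrli for the genes that separated the paralogs. This held on the log2 scale for 439 of the 530 genes higher in YAPi (82.8%) and for 309 of the 390 genes higher in TAZi (79.2%), beside 63.1% of all genes tested. For 158 of the 530 (29.8%) and 115 of the 390 (29.5%) each knockdown lay, in both its libraries, on its own side of both Ctrli libraries, beside 6.18% of all genes tested. These orders share the Ctrli libraries and the YAPi and TAZi values that chose the genes, and are given with no test.

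Genes placed on opposite sides of the controls included, besides COL5A3 and IL33, CCDC69, PSCA, RIPOR2, NPR3, CYFIP2 and NECTIN4. PSCA, a surface antigen of glandular epithelia, was at 14.7 and 13.1 TPM in YAPi, 1.56 and 1.35 TPM in TAZi, and 3.38 and 3.82 TPM in Ctrli. NPR3, the clearance receptor for natriuretic peptides, showed the reverse order, at 1.66 and 1.05 TPM in YAPi, 6.73 and 5.26 TPM in TAZi, and 3.61 and 3.78 TPM in Ctrli. NECTIN4, an adhesion molecule, was at 5.79 and 5.18 TPM in YAPi, 2.37 and 2.21 TPM in TAZi, and 4.91 and 3.07 TPM in Ctrli.

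Genes that the study had assigned by chromatin binding to a single paralog were called about as often as all genes or less often by count, with no test of the difference. Of the genes it listed near TAZ-specific sites, 509 were tested here, and 11 were higher in YAPi and 7 in TAZi (3.54% in all, median 0.01). Of those near YAP-specific sites, 81 were tested, and 3 were higher in YAPi and 2 in TAZi (6.17%, median -0.03). The background was 6.13%. With YAPi 1, YAPi 2, TAZi 1 and TAZi 2 left out, the TAZ-site genes called became 7, 4, 1 and 3 on the YAPi side and 3, 0, 0 and 0 on the TAZi side, and the YAP-site genes 1, 1, 0 and 0 and 3, 0, 0 and 0.

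The promoters of the most changed genes were read for short letter patterns modelled on those that AP-1, TEAD and STAT factors bind, since these genes move together. Searched on both strands were TGANTCA for AP-1, GGAATG for TEAD and TTCNNNGAA for STAT factors. The search covered 250 bases before and 50 after each annotated start. N is any base, so the pattern called AP-1 letters is looser than TGACTCA and TGAGTCA and also took in TGAATCA and TGATTCA. The shares were not split by this middle base. AP-1 letters were present in 74 of 605 promoters of genes higher in YAPi (12.2%), in 20 of 420 promoters of genes higher in TAZi (4.76%) and in 5.57% of promoters of all tested genes. TEAD letters were present in 13.2%, 7.14% and 11.5%, and STAT letters in 5.45%, 5.71% and 6.31%. Promoters of the same gene can overlap, and a match is a description of these letters, not a site.

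Of the 12 genes most raised in YAPi, 10 had a promoter in the RefSeq table (GRCh38.p14), and 4 of these held AP-1 letters: SPRR1B, CLDN4, SLC6A14 and FAM25A. Of the 12 in the lower block, 8 had a promoter, and 0 held AP-1 letters. The promoters of SPRR1B (chr1:153030953-153031252, plus strand) and CLDN4 (chr7:73830746-73831045, plus strand) are shown as the 2 with a pair of AP-1 matches. That of S100A7 (chr1:153460602-153460901, minus strand) is shown as an equally raised gene with none of the 3 motifs. Capitals mark the AP-1 letters and, in SPRR1B, also the TEAD letters GGAATG, which begin 90 bases before the start.
SPRR1B: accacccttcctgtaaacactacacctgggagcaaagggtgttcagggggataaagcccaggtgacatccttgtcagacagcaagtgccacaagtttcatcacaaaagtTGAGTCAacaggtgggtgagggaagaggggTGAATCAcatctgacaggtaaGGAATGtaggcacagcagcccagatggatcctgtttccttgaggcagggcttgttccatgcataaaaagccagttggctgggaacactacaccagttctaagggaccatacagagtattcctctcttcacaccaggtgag
CLDN4: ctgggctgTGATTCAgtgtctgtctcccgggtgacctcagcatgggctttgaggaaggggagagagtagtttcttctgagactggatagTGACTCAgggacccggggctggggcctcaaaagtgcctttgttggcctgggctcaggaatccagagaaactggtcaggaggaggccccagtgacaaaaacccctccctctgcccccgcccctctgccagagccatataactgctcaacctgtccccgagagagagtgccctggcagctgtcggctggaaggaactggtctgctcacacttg
S100A7: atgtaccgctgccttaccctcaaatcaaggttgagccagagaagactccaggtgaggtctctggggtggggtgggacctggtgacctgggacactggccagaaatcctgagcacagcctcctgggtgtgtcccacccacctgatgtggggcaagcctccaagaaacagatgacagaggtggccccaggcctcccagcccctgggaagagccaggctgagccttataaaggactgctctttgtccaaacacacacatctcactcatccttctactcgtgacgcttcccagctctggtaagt

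The same contrast in non-transformed cells, which shares no library with the transformed cells, called 592 genes under ETH (4.03% of 14682 tested), and 210, 151, 172 and 144 without YAPi 1, YAPi 2, TAZi 1 and TAZi 2 of ETH. Of the 530 genes higher in YAPi under TAM, 522 averaged 10 or more normalized counts under ETH, and 492 of these (94.3%) were also higher in YAPi there, beside 51.2% of all genes tested. Of the 390 genes higher in TAZi, 348 of 373 (93.3%) kept their direction, beside 48.8%. Genes called in both treatments in the same direction numbered 185 on the YAPi side, which is 34.9% of the TAM calls and 62.5% of the ETH calls, and 131 on the TAZi side, 33.6% and 44.3%. Another 2 genes were called in opposite directions, and 0 with a replicate block. The siRNAs were the same in both treatments, so an effect of a pool beyond its target cannot be told apart here either.

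Among the shared genes COL5A3 differed alike, by -4.27 under ETH and -4.18 under TAM, and so did YAP1 (-2.18 and -2.32) and WWTR1 (1.82 and 2.05). SPRR1B, S100A7, AZGP1, A2ML1, FAM25A, PI3, PSCA, SBSN and AQP3 were the others among the 10 with the largest differences called in both treatments that averaged 100 or more normalized counts in each, and these 9 were higher in YAPi. Under ETH their log2 fold changes ran from 2.48 (PI3) to 3.93 (AZGP1), and under TAM from 3.0 (PI3) to 5.18 (SPRR1B).

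The difference between the treatments was itself called for 42 of 22835 genes (0.184%), and for 12 to 20 without TAZi 2 of ETH or without YAPi 2, TAZi 1 or TAZi 2 of TAM. CD24 was the gene in which the separation under TAM exceeded that under ETH with the smallest adjusted p. Under ETH it stood at 107 and 101 TPM in YAPi, 41.1 and 45.4 TPM in TAZi and 34.7 and 25.8 TPM in Ctrli. YAPi was thus at the same level in both treatments, while TAZi was lower under TAM, as was Ctrli at 12.1 and 10.8 TPM. The TAM less ETH value was 1.99 ± 0.20 (DESeq2 adjusted p 1.1e-18). S100A8 had the opposite pattern: under ETH it was at 505 and 397 TPM in YAPi and 59.2 and 71.0 TPM in TAZi, and under TAM the groups overlapped (TAM less ETH -2.63 ± 0.18, DESeq2 adjusted p 1.1e-43). RHOU, a small GTPase, was at 0.31 and 0.27 TPM in YAPi and 1.88 and 1.52 TPM in TAZi under TAM, while under ETH all 4 libraries were between 0.67 and 0.89 TPM (TAM less ETH -2.38 ± 0.47, DESeq2 adjusted p 0.00046). IL33 and BATF3 were at 0.05 TPM or less and at 0.51 TPM or less in the 4 ETH libraries, and the test of the difference between treatments was not passed (DESeq2 adjusted p 0.87 and 0.21).

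**Figure D5:**
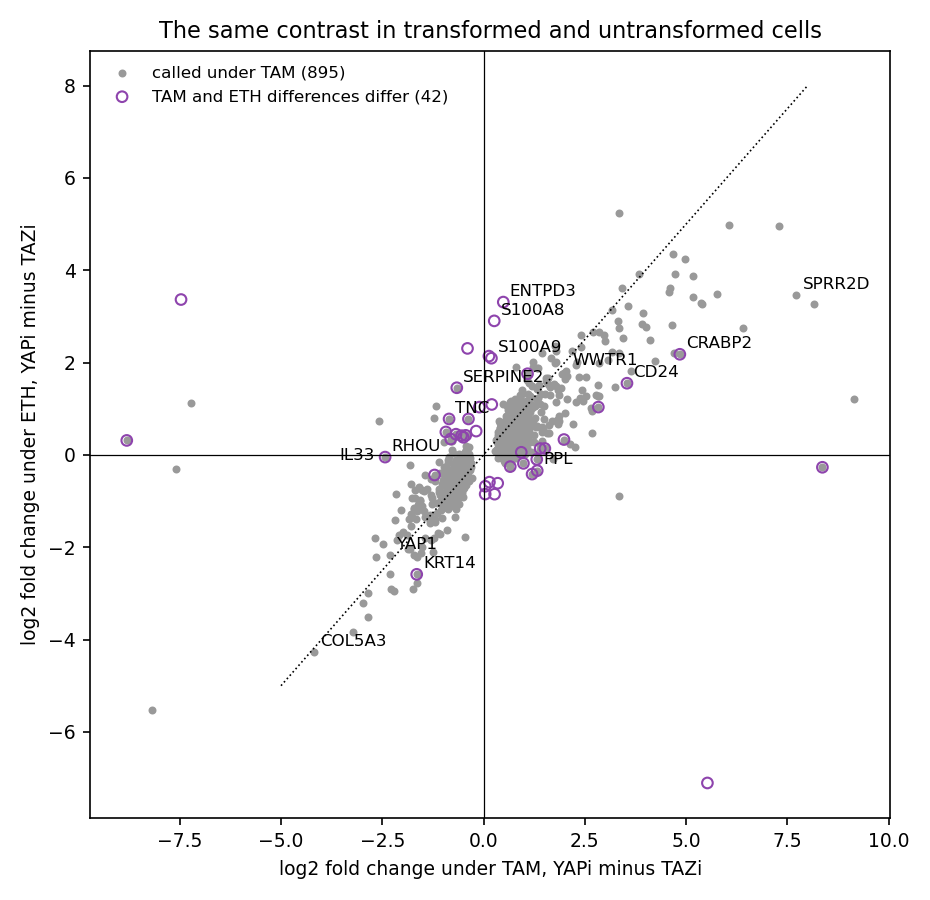
Log2 fold change (YAPi minus TAZi) under TAM (x axis) and under ETH (y axis) for 895 genes called under TAM with counts under ETH (grey), with equal values on the dotted line. Rings mark the 42 genes whose difference between treatments was called, such as S100A8 (0.26 under TAM, 2.90 under ETH) and RHOU (-2.43 and -0.05).

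In MDA-MB-231 the contrast of the same targets called 140 of 7631 genes (1.83%), and 105, 90, 48 and 47 without YAPi 1, YAPi 2, TAZi 1 and TAZi 2. These 4 libraries held 1724453 to 2784605 estimated counts, and the gap between gene length and effective length, which follows read or fragment length, was 48 bases in both first replicates and 74.56 to 74.57 bases in both second replicates, so that replicates differed in how they were sequenced. YAP1 and WWTR1 again separated, by -3.02 ± 0.25 and 3.71 ± 0.53 (DESeq2 adjusted p 4.8e-29 and 1.3e-09). Of the genes higher in YAPi under TAM, 306 of 393 with counts (77.9%) were higher in YAPi in MDA-MB-231, beside 52.8% of all tested genes, and of those higher in TAZi 208 of 306 (68.0%), beside 47.2%. Calls in both lines and in the same direction numbered 35 (6.6% of the TAM calls and 36.1% of the MDA-MB-231 calls) and 16 (4.1% and 37.2%), with 0 and 2 called in opposite directions. With a replicate block in MDA-MB-231, which called 275 genes, these were 52 and 30 in the same direction and 1 and 5 in opposite directions. The cornified envelope genes could hardly be compared, since only 2 of the 29 were given an adjusted p in this line and neither was called. HK2 differed as in the ER-Src cells, at 1.37 and 2.98 TPM in YAPi and 3.86 and 10.6 TPM in TAZi (log2 fold change -2.35, DESeq2 adjusted p 3.4e-06). ITGAV, an integrin subunit, was higher in YAPi in both lines, by 1.28 in MDA-MB-231 and 1.06 in ER-Src cells under TAM. HMGA2, a chromatin protein chosen after its values were seen, was higher in YAPi by 1.87 and 1.80.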

How the data were processed

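Groups and replicate numbers were taken from sample titles, with 2 libraries per group. Per the methods of the study, total RNA was made into TruSeq Ribo Profile libraries, and reads were trimmed, aligned with STAR to GENCODE version 30 transcripts (hg38) and quantified with RSEM, whose versions are not given in the sources used here. The authors deposited RSEM expected counts, in which a read that fits several genes is divided among them. The deposited TPM values, scaled by the authors for gene length and library total, were used for levels only. Because TPM share a fixed total, they move with abundant RNAs: ENSG00000280102.2 took 154000 and 184000 TPM in YAPi and 110000 and 123000 TPM in TAZi. Fold changes use size factors instead.

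Ensembl genes only were kept (60725 of 61471 identifiers). Of these, 93.1% matched GENCODE version 44 on the same build, which gave symbols and coordinates. Expected counts were rounded and YAPi was compared with TAZi in DESeq2 1.42.0 (R 4.3.3), with median-ratio size factors, the Wald test, no shrinkage and an adjusted p under 0.01, after the study's methods. Alternatives were TMM size factors, a fit over all ER-Src groups, a replicate block, effective length offsets, a count filter, an adjusted p under 0.05, each library left out, and edgeR 4.0.16. The scripts were tested on simulated counts. With 2 libraries per group, exact permutation of labels could not pass the threshold, and each p-value is from a model over all genes. Depth is given with the results.

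Named genes were YAP1 and WWTR1, the 12 largest called changes per direction among protein-coding genes averaging 100 or more normalized counts with no overlap, up to 4 called members of each list, fixed pathway genes, genes called in both treatments, genes with a called treatment difference, genes on either side of Ctrli, called genes that are not protein-coding, and the most abundant called genes. ANGPTL4, AXL, DSC3, ETS2, EVPL, FLG, HRNR, MKI67, S100A6, SPINK5, SPINK6, SPRR1A and TMPRSS4 were named after their values were seen. Some results are not reported here. The members, lists and rules were chosen with earlier results of these data known. Promoter sequences are from RefSeq (GRCh38.p14), and transcripts from GENCODE version 44.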

Additional observations from a re-analysis of the deposited data

Results flagged for a closer look

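Among the named genes, 13 showed a difference between YAPi and TAZi that itself differed between TAM and ETH (DESeq2 interaction term, adjusted p under 0.01). The separation moved towards YAPi under TAM for CRABP2 (2.67 on the log2 scale, TAM less ETH), CD24 (1.99), PPL (1.67) and KRT14 (0.94). For KRT14 both treatments had the gene higher in TAZi, by less under TAM. PPL was higher in YAPi under TAM (1.33), while under ETH the value was -0.34 and was not called.

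The separation moved towards TAZi under TAM for ENTPD3 (-2.82), S100A8 (-2.63), RHOU (-2.38), SERPINE2 (-2.11), S100A9 (-1.89), TNC (-1.61), AKR1C3 (-1.42), KYNU (-1.13) and SERPINB13 (-1.12). SERPINE2 was called in opposite directions, higher in YAPi under ETH (1.45) and higher in TAZi under TAM (-0.66). Its call under TAM was lost with a replicate block. In ENTPD3, an ectonucleotidase, YAPi under ETH stood at 3.26 and 3.10 TPM and TAZi at 0.31 and 0.40 TPM, and under TAM the values were 9.59 and 10.9 TPM against 7.87 and 8.11 TPM. TNC had 1 ETH library apart from the rest, YAPi replicate 2 at 4.32 TPM, with the other YAPi library at 0.54 TPM and TAZi at 0.95 and 0.69 TPM. Groups of 2 are too small for a test of single libraries.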

How the results depend on the processing

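Depth and 2 libraries per group limit what was called. The YAPi and TAZi contrast under TAM called 920 genes, and 593 with a replicate block, 1459 at an adjusted p under 0.05, 2611 with edgeR's quasi-likelihood test and 530 with that test after adjustment of its deviances, a setting chosen after seeing the data because the default estimated an infinite prior. Leaving out 1 library, where the lone sample of a group is assumed to vary like the other group, gave 231 to 686. Under ETH the 592 calls became 1468 with edgeR, 55 with adjusted deviances and 144 to 210 with 1 library left out. The 42 treatment differences became 291, 18 and 12 to 54, and 55 with the replicate block. In MDA-MB-231 the 140 calls became 434, 42 and 47 to 105, with 275 under the replicate block and 92 with effective length offsets. Other size factors and a mean count of at least 10 kept the 4 counts within 1.5 times, as did a fit over all ER-Src groups for the TAM and ETH counts, where it was run. Same-numbered libraries deviated together (r = 0.284 under TAM, 0.403 under ETH and 0.797 in MDA-MB-231, across genes), but 2 numbers cannot establish a pairing. Of 185 named genes called, 0 changed sign under any setting and 63 stayed called under all of them. Of the genes called under TAM, 89.6% to 97.1% kept their direction under ETH in every setting.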

Other observations

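In 3 of 14 tested complement genes TAZi was higher and in 1, CD59, YAPi was (28.6% called, beside 6.13% of all genes). With YAPi 1, YAPi 2, TAZi 1 and TAZi 2 left out these were 6, 1, 0 and 0 and 0, 1, 0 and 0. CLU (clusterin) was at 3.35 and 3.52 TPM in YAPi, 9.86 and 9.19 TPM in TAZi, and 5.82 and 5.81 TPM in Ctrli (log2 fold change -1.30 ± 0.24, DESeq2 adjusted p 4.3e-06), and CFI was higher in TAZi as well (-1.01 on the same scale). Metallothioneins, which bind zinc and copper, were higher in TAZi in 3 of 5 tested members, which became 3, 1, 1 and 1 in the same order of libraries left out and 1 by edgeR with adjusted deviances. MT1X was at 413 and 292 TPM in YAPi against 758 and 781 TPM in TAZi and 935 and 948 TPM in Ctrli. AGT (angiotensinogen) was at 0.79 and 0.38 TPM in YAPi, 1.98 and 2.57 TPM in TAZi, and 0.38 and 0.20 TPM in Ctrli, so that TAZi was the group apart. HAS2 (hyaluronan synthase) was at 1.21 and 0.56 TPM in YAPi, 4.00 and 2.54 TPM in TAZi and 0.94 and 1.16 TPM in Ctrli, where the YAPi and Ctrli values overlapped.

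Of 14 tested integrins 3 were higher in YAPi and 1 in TAZi, and the 3 became 5, 3, 1 and 1 and the 1 became 1, 1, 1 and 0 with the same libraries left out. ITGA1 was lower in YAPi (2.21 and 1.70 TPM against 4.88 and 6.22 TPM), while ITGAV was higher, at 22.4 and 18.3 TPM against 9.90 and 9.81 TPM. Abundant RNAs without a poly(A) tail differed by small amounts that passed the test. SNORD3A was at 53800 and 47300 TPM in YAPi and 68700 and 67700 TPM in TAZi. RN7SL1 was at 49600 and 50600 TPM against 41700 and 42400 TPM. Neither stayed called in a fit over all ER-Src groups, and SNORD3A was also lost with effective length offsets.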
